A study of Mus musculus with 4 samples.

Results

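The activated cells described here were 565 of the 5080 cells of the deposited single-cell table, namely the cells whose cluster name in that table was Activated. They were one of 8 clusters that the study made jointly from small-intestinal CD4+ T cells which had at some time expressed Il17a. The study gives the sorted cells as YFP+CD4+ T cells, and also as YFP+CD4+TCRαβ+. They came from mice of 7 to 8 months on a C57BL/6 background carrying Il17a-Cre and a Rosa26-stop-YFP reporter. Profiling was by droplet-based 3′ single-cell RNA sequencing (scRNA-seq). In TGFβR-KO mice the Cre removed floxed alleles of Tgfbr2, in TGFβR-CA mice it switched on a constitutively active Tgfbr1 behind a floxed stop, and TGFβR-WT mice carried neither floxed allele. All 3 conditions thus shared the Cre and the reporter, and any cell lineage that has expressed Il17a can carry the label. The table held 1 sample each of TGFβR-KO and TGFβR-CA and, pooled under one name, 2 samples of TGFβR-WT. The number of animals behind each is not given in the sources used here. The study sequenced TGFβR-KO and TGFβR-CA in separate runs, each with a TGFβR-WT sample.

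T helper 17 (TH17) cells protect mucosal surfaces through IL-17 and IL-22. Lymphocytes reach the small intestine through CCR9, the receptor for the chemokine CCL25 made by its epithelium, and CXCR6, the receptor for CXCL16, marks T cells held in tissues. Cells that leave tissues for lymph and blood instead use the sphingosine-1-phosphate receptor S1PR1, whose gene is driven by the transcription factor KLF2.

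TGFβR-KO gave 318 activated cells, TGFβR-WT 117 and TGFβR-CA 130. The shares were 10.7% of 2975 TGFβR-KO cells (95% exact Clopper-Pearson interval 9.60 to 11.9%), 11.6% of 1007 TGFβR-WT cells (9.70 to 13.8%) and 11.8% of 1098 TGFβR-CA cells (9.99 to 13.9%). The names of TGFβR-WT cells fell into 2 sets that could not be tied to a sample, and 12.4% of 709 cells of the larger set (10.1 to 15.1%) and 9.73% of 298 cells of the smaller set (6.61 to 13.7%) were activated. The shares were therefore close in all conditions, with overlapping intervals that cover counting error only. Without the tumorigenic and CTL (cytotoxic) clusters, which held 361 and 321 cells in TGFβR-KO and at most 5 and 13 elsewhere, the TGFβR-KO share was 13.9% (12.5 to 15.4%).

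Of the activated cells, 1 shared its barcode with a cell of another library, against 31 of the other cells. The values were SCTransform-corrected UMI counts, so that raw depth per cell is unknown. Median corrected UMIs per activated cell ran from 3729 to 4149 over TGFβR-KO, the 2 TGFβR-WT sets and TGFβR-CA, and from 3425 to 3926 in the other cells. Activated cells held more detected genes, with medians of 1591 to 1825 against 1447 to 1649. After thinning each cell to 2900 corrected UMIs the medians were 1321.5 to 1479 against 1224 to 1331, higher in activated cells in each of the 4. The part of this difference in the results was not tested, no doublet call is stated, and none was made here.

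Neither targeted gene followed the genotypes. Tgfbr2 stood at 1.80, 1.49, 1.79 and 2.03 in activated cells of TGFβR-KO, the larger TGFβR-WT set, the smaller TGFβR-WT set and TGFβR-CA, and Tgfbr1 at 0.302, 0.466, 2.44 and 1.45. Tgfbr1 was thus higher in the smaller TGFβR-WT set and TGFβR-CA than in the other 2 groups. A 3′ tag outside the deleted exons, or shared by a transgene and the native gene, checks nothing. Xist, transcribed from the inactive X chromosome, stood at 0, 0, 9.44 and 4.58 in the same order and at 0, 0, 9.91 and 4.59 in the other cells. It was thus found in the smaller TGFβR-WT set and TGFβR-CA, the groups with the higher Tgfbr1, and not in the larger set and TGFβR-KO. The study used both sexes, and the part of this difference in the results was not tested.

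The markers after which the cells are named are given as a description, since the clusters were made from the same values. Levels are given as corrected UMIs per 10000 summed over cells. Ccr9 stood at 10.2, 14.2, 18.7 and 14.1 in activated cells of TGFβR-KO, the larger TGFβR-WT set, the smaller TGFβR-WT set and TGFβR-CA. In all other cells of the same groups it stood at 2.32, 1.18, 3.16 and 0.987, so that every activated group lay above every other group. Cxcr6 stood at 13.1, 11.3, 7.32 and 6.40 in the same order, against 4.99, 1.41, 2.01 and 0.532. Lztfl1, which encodes a regulator of ciliary protein traffic, stood at 2.70, 6.41, 3.09 and 5.47, against 0.655, 0.622, 0.596 and 0.574. Maf, a transcription factor of IL-10- and IL-17-producing T cells, stood at 21.5, 43.5, 34.0 and 41.6, against 11.6, 21.3, 19.0 and 23.1. Each of these 4 genes was higher in activated cells than in any other cluster with at least 20 cells, in all 3 conditions. Ly6a, which encodes the surface protein Sca-1, was at 10.3, 2.52, 1.14 and 1.11, against 6.54, 1.16, 1.0 and 0.291. It ranked highest in TGFβR-KO and TGFβR-CA and below cycling cells in TGFβR-WT (2.14 against 2.88); in the smaller TGFβR-WT set its log2 ratio was 0.17.

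**Figure D1:**
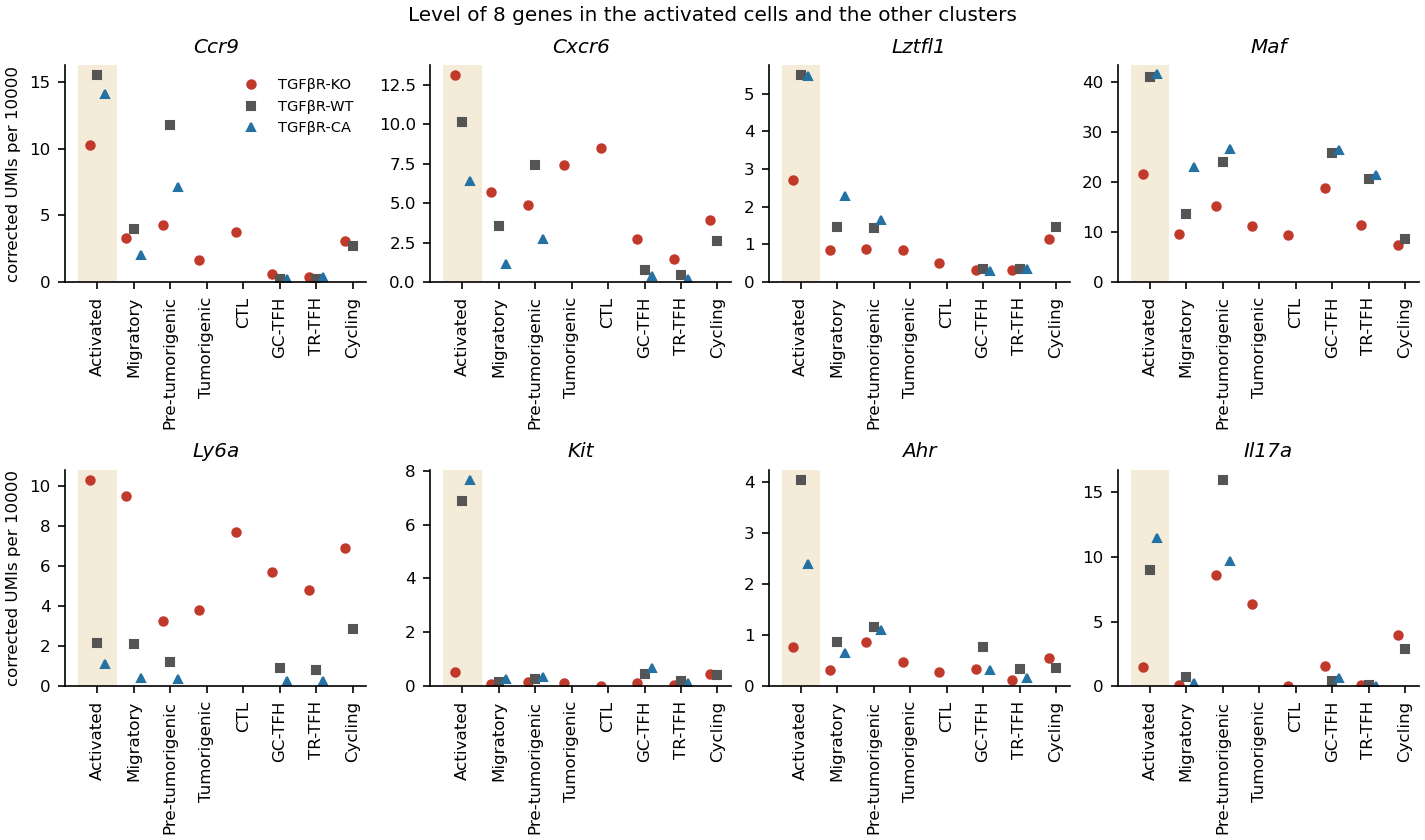
Level of 8 genes (vertical axes, corrected UMIs per 10000, each from 0) in the 8 clusters (horizontal axes), with circles for TGFβR-KO, squares for TGFβR-WT and triangles for TGFβR-CA; a cluster with under 20 cells in a condition has no point. The activated cells (shaded) hold the highest point of each condition for Ccr9, Cxcr6, Lztfl1, Maf and Kit, while the pretumorigenic cells hold the highest point for Il17a in TGFβR-KO and TGFβR-WT.

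Lztfl1, Ccr9 and Cxcr6 are neighbours on mouse chromosome 9, and the other genes around them that passed the level filter were not called. In RefSeq on GRCm38 (mm10), Lztfl1 lies at chr9:123694404-123717625 on the minus strand, Ccr9 at chr9:123767211-123783457 and Cxcr6 at chr9:123806477-123811754, both on the plus strand, together a span of 117351 bases. The log2 ratios of activated to other cells were 1.89, 2.97 and 3.05 for Lztfl1 in TGFβR-KO, TGFβR-WT and TGFβR-CA, 2.10, 3.01 and 3.71 for Ccr9, and 1.38, 2.58 and 3.36 for Cxcr6. Fyco1, on the minus strand at chr9:123789500-123851899, contains Cxcr6, and its levels were 0.286, 0.427 and 0.413 in activated cells against 0.295, 0.327 and 0.280 in the others. Lars2, Limd1 and Sacm1l, on the other side, had log2 ratios between -0.31 and 0.38. The chemokine receptor genes Ccr1 and Ccr2, farther along, were too low for the filter, and went the same way in part. Ccr1 stood at 0.0817, 1.57 and 1.63 in activated cells against 0.0224, 0.113 and 0.0442 in the others, and Ccr2 at 0.245, 0.450 and 0.376 against 0.184, 0.0702 and 0.0260. Both were thus above the other cells by a wide ratio in TGFβR-WT and TGFβR-CA and near 0 in TGFβR-KO for Ccr1. Cxcr6 and Fyco1 overlap on opposite strands, and the strand setting of the counting is not given in the sources used here. The clusters were made from expression, so that this is a description of where the marker genes lie.

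**Figure D2:**
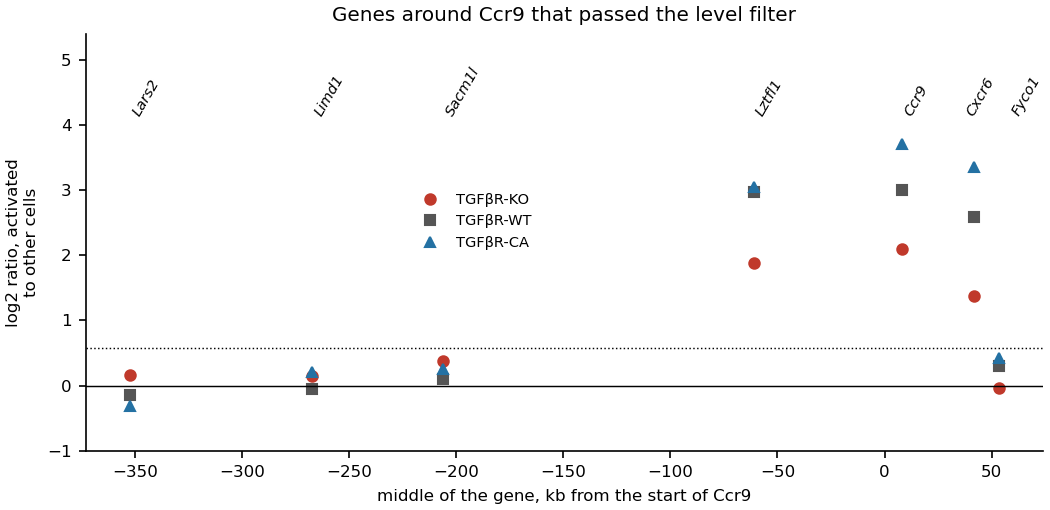
Log2 ratio of activated to other cells (vertical axis) for the genes within 400 kb of Ccr9 that passed the level filter, by distance of the middle of each gene from the start of Ccr9 in kb (horizontal axis). The 3 conditions lie well above the dotted line, a ratio of 1.5, for Lztfl1, Ccr9 and Cxcr6, and below it for Lars2, Limd1, Sacm1l and Fyco1.

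Of the 104 genes higher in activated cells in all 3 conditions (counted over all genes further on), 102 had a RefSeq position, and 13 of these lay within 100000 bases of another one, in 6 groups. The share over all tested genes was not computed, so that this count has no background to be read against. The other groups were Il1r2 with Il1r1, Tmem176b with Tmem176a, Lag3 with Ptms, Abi3 with Gngt2, and B4galnt4 with Pkp3. Tmem176b and Tmem176a overlap on opposite strands, as do Abi3 and Gngt2, so that these pairs may share reads.

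The start-site windows of the 3 chromosome 9 genes and of Il17a are shown because the first 3 mark these cells and Il17a is the gene whose past expression labelled them; each runs from 250 bases before to 50 after the start in RefSeq on GRCm38.p6, 5′ to 3′ on the gene's strand. Capitals mark GCGTG (the AHR core), TGTGGT (RUNX), TGACTCA (AP-1) or TGCTGA (MAF), searched on both strands. The windows are chr9:123717576-123717875 on the minus strand for Lztfl1, and chr9:123766961-123767260, chr9:123806227-123806526 and chr1:20730655-20730954 on the plus strand for Ccr9, Cxcr6 and Il17a.
Lztfl1: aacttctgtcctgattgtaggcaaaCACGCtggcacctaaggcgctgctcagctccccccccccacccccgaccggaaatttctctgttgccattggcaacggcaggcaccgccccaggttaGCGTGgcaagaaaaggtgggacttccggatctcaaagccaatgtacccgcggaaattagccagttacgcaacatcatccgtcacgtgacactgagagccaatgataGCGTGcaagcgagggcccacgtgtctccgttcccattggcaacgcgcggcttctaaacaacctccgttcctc
Ccr9: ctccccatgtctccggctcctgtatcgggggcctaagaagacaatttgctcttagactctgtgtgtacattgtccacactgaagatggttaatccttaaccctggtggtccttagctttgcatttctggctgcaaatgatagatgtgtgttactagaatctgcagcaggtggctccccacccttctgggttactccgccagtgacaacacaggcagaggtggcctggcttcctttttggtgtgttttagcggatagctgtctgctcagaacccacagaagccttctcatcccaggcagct
Cxcr6: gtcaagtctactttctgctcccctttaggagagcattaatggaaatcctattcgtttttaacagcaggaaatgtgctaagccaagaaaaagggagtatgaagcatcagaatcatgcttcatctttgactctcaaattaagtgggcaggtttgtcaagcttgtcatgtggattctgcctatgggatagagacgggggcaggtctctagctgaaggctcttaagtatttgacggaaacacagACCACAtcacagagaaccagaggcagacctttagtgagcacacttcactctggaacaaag
Il17a: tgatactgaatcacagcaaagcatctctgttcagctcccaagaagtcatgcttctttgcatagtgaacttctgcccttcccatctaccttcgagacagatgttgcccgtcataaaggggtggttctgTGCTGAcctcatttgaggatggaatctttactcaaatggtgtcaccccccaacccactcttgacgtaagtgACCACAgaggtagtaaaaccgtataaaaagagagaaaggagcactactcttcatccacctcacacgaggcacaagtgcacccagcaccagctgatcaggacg
The Lztfl1 window held the AHR core 3 times, the Cxcr6 window a RUNX match, and the Ccr9 window none of the 4 motifs. The Il17a window held a MAF match and a RUNX match. Over the table's 32851 windows the shares with a match were 32.4% for GCGTG, 16.8% for TGTGGT, 5.20% for TGACTCA and 19.5% for TGCTGA. Over the 97 windows found for 78 of the 104 higher genes they were 40.2%, 17.5%, 5.15% and 14.4%, and over the 4594 windows of 3629 genes that passed the level filter 53.1%, 12.4%, 3.13% and 14.1%. A match is a run of letters and not a site in use.

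For the comparison across genes, a gene was counted where its level in activated cells differed from that in all other cells of the condition by a ratio of at least 1.5, after adding 0.1 to both. This was asked of 4570 genes whose level, averaged over the conditions, was at least 0.3. In all 3 conditions 104 genes were higher (2.28%) and 61 lower (1.33%). These are counts by size with no test, since the clusters were made from the same values and each condition had 1 sample or 1 pool. In single conditions, 168 genes were higher and 126 lower in TGFβR-KO (3.68% and 2.76%), 435 and 314 in TGFβR-WT (9.52% and 6.87%), and 468 and 286 in TGFβR-CA (10.2% and 6.26%). TGFβR-KO had the fewest, and it was also the condition with the most activated cells and with the CTL and tumorigenic clusters among the others. Among the 104 higher genes TGFβR-KO gave the smallest of the 3 ratios for 83, and their median log2 ratio was 0.86 there, 1.30 in TGFβR-WT and 1.52 in TGFβR-CA, against 0.10, 0.09 and 0.09 over all 4570 genes. In the 2 TGFβR-WT sets taken apart, 86 of the 104 higher genes and 51 of the 61 lower ones kept a ratio of 1.5 in both.

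**Figure D3:**
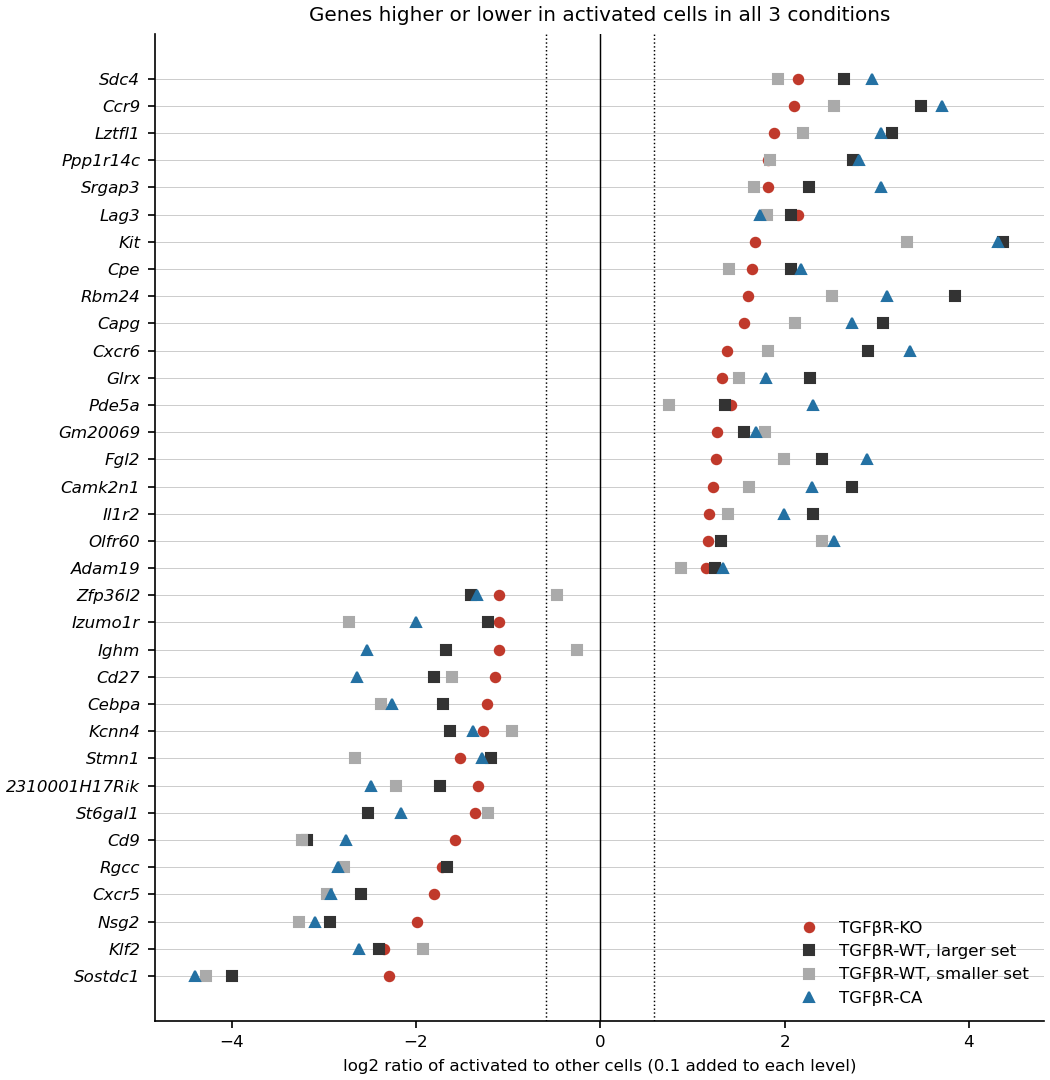
Log2 ratio of activated to other cells (horizontal axis, 0.1 added to each level) for 19 of the 20 higher and the 15 lower genes with the largest smallest-of-3 ratio, with TGFβR-KO as circles, the larger and smaller TGFβR-WT sets as dark and light squares, and TGFβR-CA as triangles; dotted lines mark a ratio of 1.5. Nearly all points of a gene lie on 1 side; the smaller set's points for Ighm and Zfp36l2 lie between the dotted lines.

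Sdc4, which encodes the heparan sulfate proteoglycan syndecan-4, had the largest smallest-of-3 ratio. It stood at 1.5, 2.02, 4.39 and 2.99, against 0.261, 0.238, 1.08 and 0.301 in the other cells. In TGFβR-WT it was higher in pretumorigenic cells (3.96) than in activated cells (2.68). Lag3, an inhibitory receptor for MHC class II, stood at 2.84, 10.9, 15.3 and 10.7, against 0.566, 2.52, 4.30 and 3.15. Lag3 was higher in activated cells by ratios of 5.02, 3.90 and 3.4 in TGFβR-KO, TGFβR-WT and TGFβR-CA, although its level in TGFβR-KO activated cells was below that of the other cells in the smaller TGFβR-WT set. Kit, the receptor for stem cell factor, had ratios of 5.53, 26.4 and 26.3, the largest of the 104 genes in TGFβR-WT and TGFβR-CA. It stood at 0.523, 8.61, 2.28 and 7.66 in activated cells, against 0.0946, 0.320, 0.138 and 0.291. Kit was thus high in activated cells of TGFβR-WT and TGFβR-CA, and in TGFβR-KO its activated level was close to that of cycling cells (0.465). Capg, an actin-capping protein, stood at 3.12, 11.1, 19.2 and 12.1, against 0.995, 1.24, 4.35 and 1.74.

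The 20 also included Srgap3, a GTPase-activating protein; Cpe, carboxypeptidase E; Glrx, glutaredoxin; Pde5a, the cyclic GMP phosphodiesterase; Fgl2, a fibrinogen-like protein; Il1r2, the decoy receptor for IL-1; Adam19, a membrane metalloprotease; Rbm24, an RNA-binding protein; and Ppp1r14c, Camk2n1, Gm20069 and Olfr60. Their log2 ratios ran from 1.15 for Adam19 in TGFβR-KO to 3.30 for Rbm24 in TGFβR-WT. In TGFβR-WT pretumorigenic cells lay above activated cells for Ppp1r14c (1.60 against 1.33) and Fgl2 (2.59 against 1.57). There migratory cells lay above them for Pde5a (1.18 against 1.06). Il1r2 in TGFβR-KO activated cells (0.760) lay below tumorigenic (0.850) and GC-TFH cells (0.763). Olfr60, an olfactory receptor gene, reached 0.817, 0.810 and 1.63 in activated cells against 0.307, 0.192 and 0.20, and its many near copies make reads of this family uncertain. Of the 104 higher genes, 62 were at a higher level in activated cells than in every other cluster in all 3 conditions, as were 215 of the 4570 genes (4.7%).

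Which clusters make up the other cells bears on these counts. Without the 2 follicular helper clusters (GC-TFH and TR-TFH) 75 genes were higher (1.64%) and 52 lower (1.14%), and 54 of the 104 and 24 of the 61 were among them. Without the pretumorigenic and tumorigenic clusters 130 were higher (2.84%) and 70 lower (1.53%), with 97 of the 104 and 55 of the 61. Without the cycling cluster 104 were higher (2.28%) and 60 lower (1.31%), with 102 and 57, and without the CTL and tumorigenic clusters 131 were higher (2.87%) and 75 lower (1.64%), with 98 and 58. Of the 61 lower genes 5 were below every other cluster in all 3 conditions, as were 27 of the 4570 genes (0.591%). Where leaving out a cluster changes the call of a gene named in the next paragraphs, this is given there for some of these genes only.

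The regulators of TH17 cells were higher as far as they were called. Of 14 tested genes on that list 4 were higher in all 3 conditions and none lower. Ahr, the aryl hydrocarbon receptor that senses dietary and microbial ligands, stood at 0.760, 4.05 and 2.39 in activated cells of TGFβR-KO, TGFβR-WT and TGFβR-CA against 0.357, 0.565 and 0.317. Id2, an inhibitor of E proteins, stood at 22.3, 13 and 8.60 against 10.2, 5.25 and 2.27, and Maf, described above, was also among the 4. Rora and Irf4 passed 1.5 in TGFβR-WT and TGFβR-CA but not in TGFβR-KO, with log2 ratios of 0.16, 1.59 and 1.78 for Rora and 0.37, 1.45 and 1.64 for Irf4. Without the CTL and tumorigenic clusters 7 of the 14 were higher, Rora and Irf4 among them, and Tox was lower. Without the pretumorigenic and tumorigenic clusters 8 were higher, again with Rora and Irf4, and Tox was lower. Among the conditions Ahr was lowest and Id2 highest in TGFβR-KO activated cells.

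Of 21 tested TH17 cytokines, receptors and surface genes, 9 were higher and 3 lower. The higher ones were Kit, Ccl20, which encodes the chemokine that attracts CCR6+ cells, Il1r1, the receptor for IL-1, Tmem176a and Tmem176b, Aqp3, a water and glycerol channel, Il17re, a subunit of the IL-17C receptor, Ltb4r1, the leukotriene B4 receptor, and Il2rb, a chain of the IL-2 and IL-15 receptors. Ccl20 stood at 0.262, 4.84 and 1.15 in TGFβR-KO, TGFβR-WT and TGFβR-CA, against 0.0585, 0.250 and 0.499 in other cells. The TGFβR-KO value rested on 6 of 318 activated cells, with 13 of the 32 corrected UMIs in 1 cell. GC-TFH cells stood at 0.260 in TGFβR-KO and, above the activated cells, at 1.61 in TGFβR-CA. The lower ones were Il6ra and Il6st, the 2 chains of the IL-6 receptor, and the tetraspanin Cd9. Il6ra stood at 0.0163, 0.0450 and 0.0563 in activated cells of TGFβR-KO, TGFβR-WT and TGFβR-CA against 0.145, 0.653 and 0.678. Without the follicular helper clusters 4 of the 9 kept their call (Ccl20, Il1r1, Il2rb and Kit), and Il6ra and Il6st were no longer lower.

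Against all other cells, the cytokines themselves did not hold in all 3 conditions. Il17a had log2 ratios of -0.35, 2.20 and 3.35 in TGFβR-KO, TGFβR-WT and TGFβR-CA. Activated cells ranked highest of the clusters for Il17a in TGFβR-CA (11.5), below pretumorigenic cells in TGFβR-WT (9.02 against 16.0), and at rank 5 in TGFβR-KO (1.5, with 8.61 in pretumorigenic cells). Il22 stood at 1.27, 0.810 and 0.751 in activated cells, well below the 38.6 of pretumorigenic cells in TGFβR-KO and their 7.90 in TGFβR-CA. Il17f was at 0.695, 0.697 and 2.24. Without the pretumorigenic and tumorigenic clusters Il17a was higher in all 3 conditions. Without the follicular helper clusters Il22 was lower in all 3. Il10 did not pass the level filter, and stood at 0.0654, 0.697 and 0.263 in activated cells, ranking highest of the clusters in each condition.

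Against all other cells, genes of gut homing and retention other than the markers were not called. Of 17 tested genes, 4 were higher, namely Ccr9, Cxcr6, Lztfl1 and Ly6a, and none was lower. Itgb7, which pairs with Itga4 in the gut-homing integrin, had log2 ratios of 0.07, 0.83 and 1.1 in TGFβR-KO, TGFβR-WT and TGFβR-CA, and Cd69, which holds cells in tissue, -1.43, 0.04 and -0.06. Smco4 stood at 3.28, 15.1 and 14.4, highest of all clusters in TGFβR-WT and TGFβR-CA and below the GC-TFH cells in TGFβR-KO (5.73). Without the follicular helper clusters Smco4 was higher and Cd69 lower in all 3 conditions. Of 7 tested chemokine receptors Ccr9 and Cxcr6 were higher and Cxcr5 lower. Of 18 tested interleukin receptor chains Il1r1, Il1r2, Il17re and Il2rb were higher and Il6ra and Il6st lower.

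Genes of follicular helper T cells were lower in activated cells than in all others together: 8 of 15 tested were lower and none higher, with median log2 ratios of -0.64, -1.40 and -1.92 over TGFβR-KO, TGFβR-WT and TGFβR-CA. Cxcr5, the receptor that leads cells to B cell follicles, stood at 0.0245, 0.0900 and 0.0939, against 0.335, 1.15 and 1.37. Bcl6, the master regulator of these cells, stood at 0.155, 0.0675 and 0.0376, against 0.442, 0.937 and 0.974. Sostdc1, a secreted antagonist of BMP and Wnt signals, was at 0 in TGFβR-KO and TGFβR-WT activated cells and at 0.0188 in TGFβR-CA, against 0.391, 1.61 and 2.40. With 3 corrected UMIs over the group as the floor, this was at least 15.9-fold lower in TGFβR-KO and at least 23.8-fold lower in TGFβR-WT. The others were Izumo1r, Cebpa, Cd200, Rflnb and Tbc1d4. The GC-TFH and TR-TFH clusters held 318 and 519 of the TGFβR-KO cells, 199 and 460 of the TGFβR-WT cells, and 263 and 556 of the TGFβR-CA cells. Without both in the reference 1 of the 15 genes, Sostdc1, was lower, and the medians were 0.09, 0.24 and -0.66. Cxcr5 was as low in migratory cells, at 0.0152, 0.0887 and 0.0932.

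Of 17 tested genes of lymphoid homing and stem-like T cells 6 were lower and none higher. Klf2 stood at 1.32, 0.311, 0.244 and 0.0751 in TGFβR-KO, the 2 TGFβR-WT sets and TGFβR-CA, against 7.12, 2.07, 1.2 and 0.974 in other cells. S1pr1 stood at 0.417, 0.311, 0.325 and 0.188, against 1.24, 1.11, 0.422 and 0.509. Both exit genes were lower in each of the 4 groups, with the smallest gap for S1pr1 in the smaller TGFβR-WT set. Klf2 was lower still in GC-TFH cells of TGFβR-KO (0.503) and TGFβR-WT (0.201 against 0.292 in activated cells). In TGFβR-CA the activated cells were lowest. Tcf7 and Lef1, which maintain memory-like T cells, had log2 ratios of -0.61, -2.49 and -2.76, and -0.60, -1.30 and -1.88, and Klf3 and Cd27 were the remaining 2. Without the follicular helper clusters Klf2, S1pr1 and Klf3 kept their call and Rasa3 joined them, while Tcf7, Lef1 and Cd27 lost it. Others of the 15 lowest were Nsg2, Rgcc, St6gal1, 2310001H17Rik, Stmn1, a microtubule-destabilizing protein, Kcnn4, a calcium-activated potassium channel, Ighm and Zfp36l2, an mRNA-decay factor. Nsg2, St6gal1 and Cd9 were at 0.0817 or less in every condition.

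**Figure D4:**
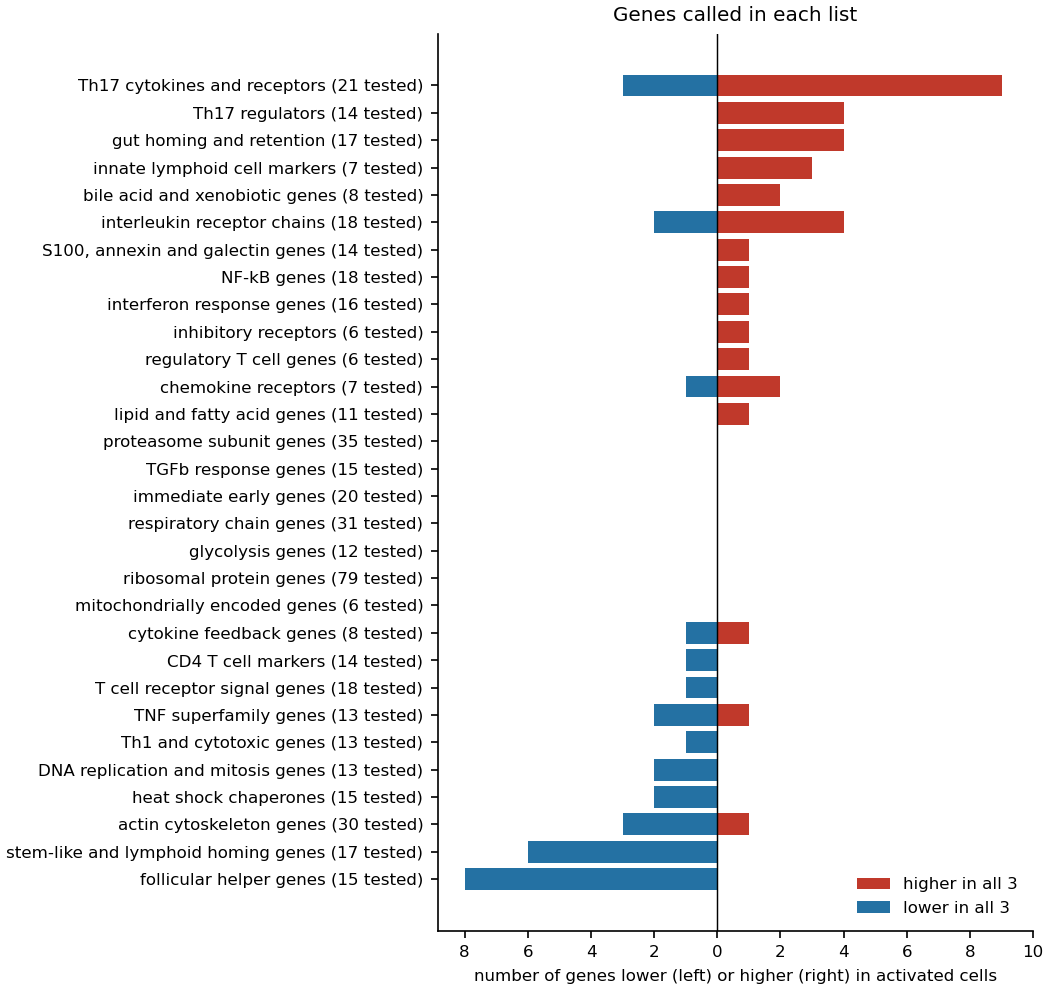
Number of genes of each list that were higher (bars to the right) or lower (bars to the left) in activated cells in all 3 conditions, for lists with at least 6 tested genes; the number tested is beside each name. The longest bars are those of the TH17 cytokines and receptors on the higher side (9 of 21) and of the follicular helper genes on the lower side (8 of 15).

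Genes of recent T cell receptor signalling were not higher as a list. Of 18 tested genes on that list none was higher and 1 lower (Orai1, the calcium channel of T cells), with median log2 ratios of -0.13, -0.09 and 0.01 in TGFβR-KO, TGFβR-WT and TGFβR-CA. Of 20 tested immediate early genes none was called, and Btg1 and Jund, the 2 at the highest level, had log2 ratios of 0.19, 0.19 and 0.46, and of -0.47, -0.03 and -0.07. The pretumorigenic cells were far higher in some of these genes, with Jun at 35.6, 70.3 and 60.8 against 6.27, 11.8 and 8.0 in activated cells. Activated cells ranked second for Jun and Fos in TGFβR-WT and TGFβR-CA, and first there for Il2ra, the high-affinity IL-2 receptor chain. Without the pretumorigenic and tumorigenic clusters Irf4, Icos and Dusp5 of the receptor signal genes and Gadd45b of the immediate early genes were higher, and Orai1 was not lower. Without the follicular helper clusters 11 of the 20 immediate early genes were lower. The calls in both lists thus depended on the clusters compared. The heat shock chaperones Hspa1a and Hspa1b were lower, 2 of 15 tested, at 1.1, 0.787 and 1.18 and at 2.32, 2.16 and 2.25, against 9.5, 2.75 and 2.41 and 11, 4.77 and 4.60. Without the pretumorigenic and tumorigenic clusters neither was lower, with log2 ratios of -0.41, -0.39 and 0.30 for Hspa1a and of -0.19, 0.10 and 0.05 for Hspa1b. Of 18 tested NF-kB genes Bcl3 was higher, and of 8 cytokine feedback genes the proapoptotic Bcl2l11 was higher and the antiapoptotic Bcl2 lower. Bcl2l11 stood at 1.08, 1.01 and 1.2 against 0.420, 0.424 and 0.327, and in the smaller TGFβR-WT set its log2 ratio was -0.38. Bcl2 stood at 0.417, 0.202 and 0.263 against 0.708, 0.754 and 0.714.

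Among inhibitory receptors Lag3 was the 1 of 6 tested that was called against all other cells. Ctla4 had log2 ratios of 0.43, 1.94 and 1.84 and Pdcd1 of -0.57, -1.34 and -2.05. Without the CTL and tumorigenic clusters Ctla4 was higher and Pdcd1 lower, as also without the pretumorigenic and tumorigenic clusters. Pdcd1 was lower without the cycling cluster too. Without the follicular helper clusters Lag3 alone was called, so that neither Ctla4 nor Pdcd1 held there. Of 6 tested genes of regulatory T cells 1, Capg, was higher. Of 13 tested TH1 and cytotoxic genes the chemokine gene Ccl5 was lower and none higher, and the list's median log2 ratios were -0.19, 1.27 and 0.68 over TGFβR-KO, TGFβR-WT and TGFβR-CA. Gzmb, the cytotoxic protease granzyme B, had log2 ratios of 0.40, 3.56 and 3.70 there. Against all other cells, the TH1 and cytotoxic genes thus did not hold across conditions. Without the CTL and tumorigenic clusters 5 of the 13 (Runx3, Hopx, Gzma, Gzmb and Nkg7) were higher and none was lower. The medians were then 0.62, 1.31 and 0.71. Without the pretumorigenic and tumorigenic clusters Ifng and Runx3 were higher and Ccl5 lower. Of 15 tested TGFβ response genes none was called against all other cells. Lgals1 and Tgfbr2, at the highest levels, had log2 ratios of -0.40, 0.86 and 0.96, and of 0.30, -0.15 and 0.21. Without the CTL and tumorigenic clusters Smad7 and Pmepa1 were higher. Smad7 and Bhlhe40 were higher without the pretumorigenic and tumorigenic clusters, and Pmepa1 and Pard6g without the follicular helper clusters.

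The calls in the remaining lists stand beside shares over all 4570 genes of 2.28% higher and 1.33% lower. With shares this small, a single call or none in a short list says little about that list. Fabp5, a fatty-acid carrier, was the 1 of 11 lipid genes, and Ahr and Gclc, the catalytic subunit for glutathione synthesis, were 2 of 8 bile acid and xenobiotic genes that were higher. Gclc stood at 1.05, 1.62 and 1.13 in TGFβR-KO, TGFβR-WT and TGFβR-CA against 0.565, 0.739 and 0.369. Gbp7 was the 1 of 16 interferon response genes, Capg the 1 of 14 S100, annexin and galectin genes, and Tnfrsf1b, a TNF receptor, the 1 of 13 TNF superfamily genes that were higher, beside Cd27 and Tnfrsf26 lower. Of 30 tested actin genes Capg was higher and Tmsb10, Stmn1 and Evl lower. Tmsb10, which binds actin monomers, had the highest level of any lower gene, at 31.8, 26.0 and 23.5 against 49.3, 58.0 and 60.8. Of 13 DNA replication and mitosis genes none was higher and Stmn1 and Tubb5 were lower. Neither call held without the cycling cluster, where Stmn1 stood at 12.5 in TGFβR-KO, and in TGFβR-WT activated cells ranked second to cycling cells for Stmn1. The calls of Fabp5, Gclc, Gbp7, Tnfrsf1b, Cd27, Bcl2 and the marker Ly6a did not hold without the follicular helper clusters. Ly6a also lost its call without the pretumorigenic and tumorigenic clusters and without the CTL and tumorigenic clusters, and kept it without the cycling cluster. In TGFβR-KO it stood at 10.3 in activated cells and at 9.47 in migratory cells. No gene was called among 12 glycolysis genes (Gapdh stood at 8.49, 11 and 10.6 against 8.48, 10.2 and 11.3, and Aldoa at 4.05, 4.72 and 4.60 against 4.66, 5.35 and 5.31), 31 respiratory chain genes (Atp5e and Cox8a had log2 ratios between -0.06 and 0.10) or 35 proteasome genes (Psmb8 and Psmb1, between -0.40 and 0.10).

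Ribosomal protein genes were lower as a group without a single call. Of 79 tested, 76 had a log2 ratio below 0 in all 3 conditions, with medians of -0.25, -0.50 and -0.37. Together they took 23.6%, 17.2% and 18.2% of the corrected UMIs of activated cells, against 28.4%, 24.8% and 24.4% in other cells. Rps24 stood at 78.2, 50.4 and 56.2 against 98.4, 79.2 and 86.5, and Rps29 at 50.5, 47.0 and 60.1 against 62.3, 78.0 and 97.4. Levels are shares of a total, so that a smaller ribosomal share raises the level of other genes. The 11 mitochondrially encoded genes took 1.03%, 0.993% and 0.508%, against 1.13%, 1.27% and 0.695%, and none of the 6 tested was called (mt-Nd1 and mt-Nd2 had log2 ratios of -0.11, -0.30 and -0.36, and of -0.08, -0.33 and -0.60).

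Summed levels of the markers of other cells that the sort could hold are given beside those of CD4 T cells. The 15 CD4 T cell markers summed to 148, 155 and 137 in activated cells of TGFβR-KO, TGFβR-WT and TGFβR-CA against 133, 158 and 154, and of 14 tested the costimulatory receptor Cd28 was lower, but not without the pretumorigenic and tumorigenic clusters. The 8 γδ T and innate-like markers present summed to 0.188, 0.360 and 0.357 against 0.0965, 0.171 and 0.0519, most of it Blk, and Trdc, the γδ receptor constant gene, stood at 0, 0.0450 and 0.0563. The study removed γδ T and epithelial cells by expression before it deposited the table. The 26 epithelial markers summed to 0.523, 0.652 and 0.977 against 0.372, 0.305 and 0.291, led by Krt18. The 6 CD8 T cell markers summed to 1.13, 1.15 and 0.507 (Cd160, the 1 tested, was not called), and the 8 myeloid markers to 2.36, 3.42 and 2.48, nearly all Cst3, against 1.87, 1.85 and 1.83 in the other cells. B cell markers were lower, at 0.744, 1.06 and 0.470 against 1.98, 3.28 and 3.15, with Ighm and Jchain called, neither of them without the follicular helper clusters. Of 7 tested innate lymphoid cell markers 3 were higher, among them Kit and Id2, and all 3 are on the TH17 lists as well, and of the 15 present 4, 6 and 5 were at 0. The segment genes of the T cell receptor did not pass the filter: 56 alpha V segments summed to 0.956, 0.472 and 1.13, and 19 beta V segments to 0.695, 0.765 and 2.29.

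At least 3 of the 5 markers were detected in 93.1% of activated cells in TGFβR-KO (exact interval 89.7 to 95.6%), 90.6% in TGFβR-WT (83.8 to 95.2%) and 89.2% in TGFβR-CA (82.6 to 94.0%), against 54.5%, 17.6% and 9.81% of other cells. No activated cell lacked all 5, with exact intervals reaching up to 1.15%, 3.1% and 2.80%. Few other cells lacked all 5 either (1.17%, 1.57% and 0.930%), and Maf alone was detected in 87.6%, 94.8% and 98.0% of them. Ccr9 was detected in 73.3%, 82.1% and 80.8% of activated cells (69.5%, 82.1% and 76.9% after thinning), against 6.74% and 3.70% of TR-TFH cells in TGFβR-KO and TGFβR-WT and 4.18% of GC-TFH cells in TGFβR-CA, the clusters where it was lowest. Cxcr6 was detected in 92.8%, 88.0% and 76.2% (90.9%, 84.6% and 69.2% thinned), against 27.4%, 9.78% and 4.5% of TR-TFH cells. Ccr9 and Cxcr6 were detected together in 67.9%, 72.6% and 60.8% of activated cells and in 25.4%, 10.6% and 4.65% of the others. Among activated cells Cxcr6 was about as frequent with Ccr9 (92.7%, 88.5% and 75.2%) as without it (92.9%, 85.7% and 80.0%).

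Other genes split the activated cells. Kit was detected in 10.7% (7.52 to 14.6%) of them in TGFβR-KO, 40.2% (31.2 to 49.6%) in TGFβR-WT and 46.2% (37.4 to 55.1%) in TGFβR-CA, against 2.79%, 5.73% and 5.89% of other cells. Single cells held up to 33 corrected Kit UMIs in TGFβR-WT and 41 in TGFβR-CA, but up to 6 in TGFβR-KO. Il17a was detected in 13.5% (9.96 to 17.8%), 57.3% (47.8 to 66.4%) and 59.2% (50.3 to 67.8%), with lowest clusters at 1.25%, 1.74% and 1.08%. Thinned shares were 11.9%, 51.3% and 56.9%. Ly6a went the other way, detected in 80.2%, 34.2% and 13.1% of activated cells (76.1%, 29.9% and 11.5% thinned). It was detected in 64.2%, 16.9% and 6.30% of other cells, so that the order over the conditions was not particular to activated cells. In TGFβR-KO, Lztfl1 was detected in 58.8% of the activated cells with Ccr9 (52.2 to 65.2%) and 29.4% of those without (upper bound 40.3%), while in TGFβR-WT and TGFβR-CA the shares were 70.8% and 76.2%, and 76.2% and 72.0%, with overlapping intervals. Detection rises with a cell's content, and these cells share a library.

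Of the clusters with at least 20 cells in every condition, the migratory (mean rho 0.864) and pretumorigenic cells (0.860) had the highest Spearman correlation with activated cells, over log2 levels of the 4570 genes. In TGFβR-KO migratory cells were nearest (0.936), before CTL (0.915) and pretumorigenic cells (0.888), and in TGFβR-WT and TGFβR-CA pretumorigenic cells (0.841 and 0.851) lay before migratory cells (0.838 and 0.819). These clusters share the libraries of the activated cells, and a correlation across genes is a description. Against migratory cells 116 genes were higher in all 3 conditions (2.54%) and 55 lower (1.2%). The higher ones with the largest ratios were Il17a, Sdc4, Il1r2, Lag3, Fgl2, Rbm24, Ppp1r14c and Ctla4. Il17a stood at 1.5, 9.02 and 11.5 against 0.0549, 0.710 and 0.233, a higher summed level in every condition. In TGFβR-KO it was detected in 43 of 318 activated cells, with up to 40 corrected UMIs in a cell. The lower ones were Klf2, S1pr1, Atp1b3, Cdc25b, S100a4, Flna, Rasgrp2 and Rasa3, with Klf2 at 10.5, 9.11 and 7.69 and S1pr1 at 2.62, 3.87 and 2.84 in migratory cells. Of the 104 higher genes 52 were also higher against migratory cells, and of the 61 lower genes 21 were also lower.

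Against pretumorigenic cells 151 genes were higher (3.3%) and 50 lower (1.09%), and 37 of the 104 higher genes and 13 of the 61 lower ones were among them. Those with the largest ratios were Lag3, Lztfl1, Bcl2l11, Penk, Glrx, Ptms, Kit and Trim34a. The lower ones with the largest ratios were Hspa1a, Hspa1b, Klf6, Dusp1, Fos, Klf2, Jun and the NF-kB inhibitor Tnfaip3. Of the 20 tested immediate early genes 14 were lower against pretumorigenic cells, as were 4 of 15 heat shock chaperones and 3 of 18 receptor signal genes. Hspa1a stood at 1.1, 0.787 and 1.18 in activated cells of TGFβR-KO, TGFβR-WT and TGFβR-CA and at 74.9, 19.9 and 18.7 in pretumorigenic cells, and Fos at 2.69, 3.96 and 1.78 against 25.6, 25.0 and 17.2. Ccr9 and Cxcr6, which name the activated cells, were nearer in pretumorigenic cells of TGFβR-WT, at 11.8 against 15.5 and at 7.44 against 10.2.

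Activated cells also differed among the conditions. A gene was counted here where TGFβR-KO or TGFβR-CA differed from both TGFβR-WT sets by a ratio of at least 1.5, with no test, among 4866 genes with a mean level of at least 0.3 in activated cells. In TGFβR-KO 83 genes were higher (1.71%) and 297 lower (6.1%), and in TGFβR-CA 73 were higher (1.5%) and 206 lower (4.23%). The smaller set held 29 activated cells, and with 1 sample each of TGFβR-KO and TGFβR-CA the sample cannot be told apart from the genotype. Of the 104 genes higher in activated cells in all 3 conditions, 28 were lower in TGFβR-KO activated cells than in both sets and 6 were higher (Id2, Ly6a, Serpina3g, Pde5a, Gbp7 and Cmc2).

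In TGFβR-KO the higher genes with the largest ratios were Ccl5, Ly6a, Trat1, Klf2, Isg20, Cd160, Themis, Ms4a4b, Serpinb6b and S100a4, and the lower ones Ccr1, Ccl20, Pard6g, Sccpdh, Pmepa1, Prr5l, Ncmap, Siglece, Smco4 and Nt5e. Pmepa1, a feedback inhibitor induced by TGFβ, stood at 0.196, 1.40, 2.52 and 1.82 over TGFβR-KO, the TGFβR-WT sets (larger, then smaller) and TGFβR-CA. Nt5e, which encodes the ecto-nucleotidase CD73, stood at 0.752, 3.27, 3.50 and 3.70 in the same order. Both lay lowest in TGFβR-KO, below the other 3 groups. Ccl5, a chemokine gene of cytotoxic and memory cells, stood at 2.21, 0.404, 0.0814 and 0, and in the other cells at 21.6, 1.09, 1.25 and 0.104. The TGFβR-KO and TGFβR-CA counts share the TGFβR-WT cells as their reference.

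In TGFβR-CA the higher genes with the largest ratios were AY036118, Gm42418, Lars2, Tsix, Iigp1, Il17f, Hist1h4d, Ccnb1ip1, Actg1 and Rnf11, and the lower ones Foxp3, mt-Nd3, Ffar2, St6galnac2, Trps1, Dcaf7, Taf13, Lst1, C730034F03Rik and Rps15. Gm42418, a gene model that overlaps ribosomal RNA, stood at 51.0, 35.5, 52.2 and 474 in the same order of groups, and at 48.8, 35.8, 42.5 and 484 in the other cells. AY036118, of the same kind, stood at 6.38, 5.22, 2.20 and 86.0, against 6.12, 5.46, 1.1 and 85.8. Both were thus as high in the other cells of TGFβR-CA as in its activated cells. Tsix, antisense to Xist, stood at 0.00817, 0, 0.244 and 2.24 in activated cells in the same order. Where counting ignores strand it cannot be told from Xist reads. Xist itself was higher in the smaller TGFβR-WT set than in TGFβR-CA. Foxp3, the regulator of regulatory T cells, stood at 0.351, 0.529, 0.895 and 0 in activated cells, and in TGFβR-CA it was at 0 in the other cells too.

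**Figure D5:**
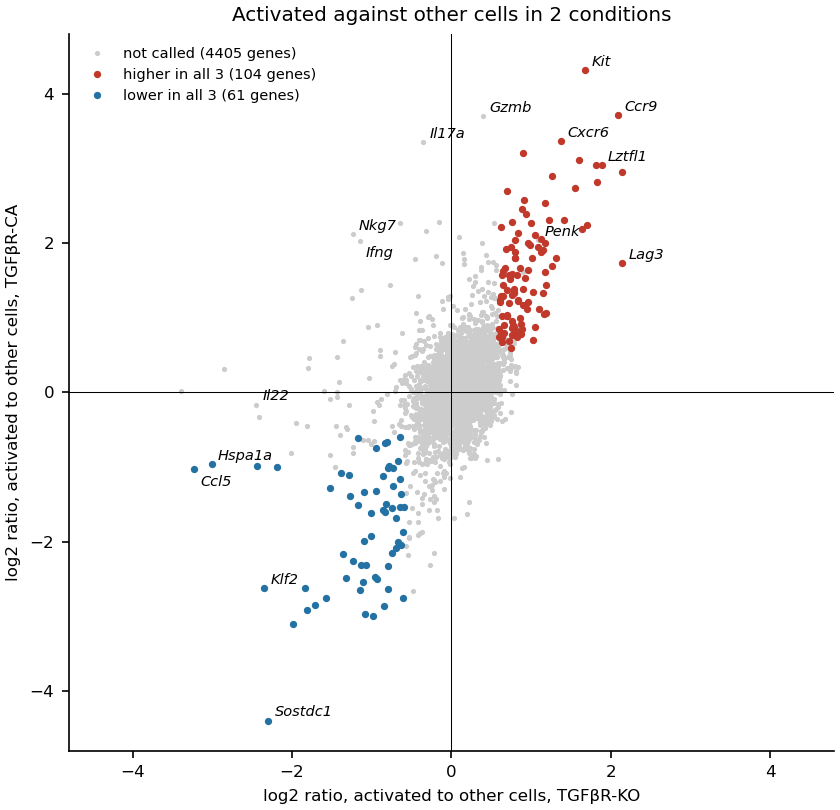
Log2 ratio of activated to other cells in TGFβR-KO (horizontal axis) and TGFβR-CA (vertical axis) for the 4570 genes tested, 1 point a gene, with those higher or lower in all 3 conditions in red or blue. The red points lie at larger ratios in TGFβR-CA than in TGFβR-KO for most genes, and Ifng, Nkg7 and Il17a lie on opposite sides of 0 in the 2 conditions.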

How the data were processed

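The deposited table held 13265 genes and 5080 cells as natural log values, ln of 1 plus the SCTransform-corrected UMI count, with a cluster name for each cell; the authors made it in Seurat from Cell Ranger 3.1.0 output on mm10 (submitters' processing notes and the study's methods). They kept cells with 1000 to 5000 genes and under 10% mitochondrial reads, integrated 2 sequencing runs by reciprocal PCA, clustered at resolution 0.5 with 10 dimensions, and removed γδ T and epithelial cells. The log was undone here; no value lay further than 1e-06 from a whole number, and no column of values was left unused (0). Levels are UMIs of a group over its total, per 10000. Ratios used a pseudocount of 0.1, a mean level of at least 0.3 and a ratio of 1.5, with no test. Named genes were the markers with Smco4 and Il17a, the 20 higher and 15 lower genes with the largest smallest-of-3 ratio, and called members of the lists; other genes named were chosen after their values were seen. The members and lists were chosen with earlier results of these data known. The counting rule was tested on simulated data. Python 3.11.15, numpy 2.4.6, pandas 2.3.3, scipy 1.17.1 and matplotlib 3.10.9 were used. RefSeq tables gave positions and windows. Some genes and motifs are not reported here; counts over genes include them.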

Additional observations from a re-analysis of the deposited data

Results flagged for a closer look

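For 10 genes of the lists, activated cells lay on opposite sides of the other cells in different conditions, with the same sign in both TGFβR-WT sets; the differences between conditions were not tested. Values are log2 ratios of activated to other cells in TGFβR-KO, TGFβR-WT and TGFβR-CA. Lower in TGFβR-KO and higher elsewhere were Ifng, the gene of interferon-γ (-1.15, 1.43 and 2.03), Nkg7, a granule protein of cytotoxic cells (-1.24, 1.29 and 2.12), and Bhlhe40, a transcription factor of cytokine-producing T cells (-1.24, 0.59 and 1.26). The same held for Tgif1, a corepressor in TGFβ signalling (-1.37, 0.39 and 0.68), Gadd45b (-0.93, 0.54 and 0.90), Crip1 (-1.04, 0.47 and 0.88), Emp3 (-0.62, 0.85 and 0.79) and S100a6 (-0.74, 0.77 and 0.36). Ikzf2, which encodes Helios, was on the higher side in TGFβR-KO (0.63, -0.90 and -0.39), and Penk, which encodes proenkephalin, on the lower side in TGFβR-WT alone (1.09, -0.92 and 2.04). For 4 of them the smaller TGFβR-WT set lay nearer to 0. In the larger and the smaller set Bhlhe40 had 0.87 and 0.03, Tgif1 0.49 and 0.05, Ikzf2 -1.18 and -0.25, and Penk -2.35 and -0.16.

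The CTL and tumorigenic clusters stood among the other cells of TGFβR-KO. Without them the TGFβR-KO ratios were 0.34 for Ifng, 0.63 for Nkg7, -0.06 for Bhlhe40, -0.74 for Tgif1, -0.45 for Gadd45b, -0.67 for Crip1, -0.43 for Emp3, -0.58 for S100a6, 0.43 for Ikzf2 and 1.01 for Penk.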

How the results depend on the processing

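Of the 104 higher and 61 lower genes, a minimum level of 1 left 35 and 25, a pseudocount of 0.5 left 53 and 19, and a ratio of 2 left 32 and 23. With no minimum level 172 were higher and 89 lower. Differences of mean ln values of at least ln 1.2 gave 49 and 38, of which 32 and 4 were among the 104 and 61. The TGFβR-KO share was 13.9% without the tumorigenic and CTL clusters in the denominator. Among 39 named genes, the pseudocount of 0.5 moved 21 and the smaller TGFβR-WT set alone moved 5; none changed sign. Alternatives chosen after seeing the data were leaving out the CTL and tumorigenic clusters (131 higher, 75 lower; Ifng and Nkg7 in TGFβR-KO turned to 0.34 and 0.63), leaving out the follicular helper clusters (75 and 52, of which 54 and 24 were shared) or the cycling cluster (104 and 60), leaving out the 10% of cells with the most detected genes (99 and 65), and thinning. No paired analysis was possible because each condition had 1 sample or 1 pool and no test was made. Small groups (29 activated cells in the smaller set) and unknown depth limit low levels.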
